A study of Mus musculus with 12 samples.

Results

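Keratins are the intermediate filament proteins of epithelial cells, and 6 of them (Krt5, Krt7, Krt8, Krt18, Krt19 and Krt20) were followed here in whole kidney tissue of mice with adenine-induced chronic kidney disease (CKD). The 6 genes were taken by name from a table of 22053 rows, as keratins of collecting duct, of urothelium and of injured tubule. Kidneys of 12 wild-type C57BL/6 mice were sequenced, 4 in each of 3 groups. Control mice ate a diet without adenine, whereas CKD mice ate the same diet with 0.2% adenine from 8 to 16 weeks of age, and both groups were injected with PBS intraperitoneally (i.p.) every week. CKD+Fe mice ate the adenine diet over the same weeks and were given iron dextran i.p. weekly at 0.5 g/kg.

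Keratin filaments are built from a type I and a type II chain in equal parts, so that each chain needs a partner of the other type. Krt5, Krt7 and Krt8 are type II, and Krt18, Krt19 and Krt20 are type I. Krt8 and Krt18 form the pair of simple epithelia, Krt7 and Krt19 are keratins of ducts, Krt20 is known from intestinal epithelium and from the umbrella cells of the urothelium, and Krt5 is the keratin of basal cells. In the healthy kidney, keratins are found in collecting duct and in the lining of the pelvis rather than in the proximal tubule, and Krt8, Krt18, Krt19 and Krt20 are known to appear in tubules after injury.

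Expression is given as FPKM, a read count scaled by transcript length and by the size of the library, so that levels can be compared between genes. The FPKM of a library summed to between 503438 and 707843, and the number of reads behind a value is not known, so that no counting error can be given. Of the 22053 rows, 13148 had at least 1 FPKM in at least 4 mice and were tested, all 6 keratins among them. The median log2 fold change of all genes tested was 0.50 in CKD and in CKD+Fe against control mice, and fold changes are also given after median-of-ratios rescaling, which brought this median to 0.01 in CKD and 0.02 in CKD+Fe mice. In each group 1 mouse stood apart from the others: control mouse 042301, CKD mouse 110310 and CKD+Fe mouse 042702 had 608, 911 and 453 genes at least 2-fold away from the median of their group mates, against 65 to 218 genes in the other 9 mice. Proximal tubule genes summed to 895 to 8538 FPKM over the 12 mice, and 11 of 12 fell in CKD mice, beside 13.3% of all genes tested.

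Promoters are shown for Krt20, which changed most, and for Krt8 and Krt18, which had the highest means in CKD mice. The sequences below hold the 250 bases before the RefSeq start of the gene and the first 10 bases after it, 5′ to 3′ on the strand of the gene (GRCm38.p6). Capitals mark matches, on either strand, to the TEAD motif GGAATG or to the TATA motif TATAAA. Krt20 lies at chr11:99438144-99438403 on the minus strand, Krt8 at chr15:102004333-102004592 on the minus strand and Krt18 at chr15:102027966-102028225 on the plus strand.
Krt20: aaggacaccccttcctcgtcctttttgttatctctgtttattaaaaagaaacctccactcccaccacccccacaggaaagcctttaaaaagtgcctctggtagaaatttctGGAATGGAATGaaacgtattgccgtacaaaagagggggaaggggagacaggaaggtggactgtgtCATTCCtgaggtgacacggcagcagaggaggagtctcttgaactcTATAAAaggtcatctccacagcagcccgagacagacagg
Krt8: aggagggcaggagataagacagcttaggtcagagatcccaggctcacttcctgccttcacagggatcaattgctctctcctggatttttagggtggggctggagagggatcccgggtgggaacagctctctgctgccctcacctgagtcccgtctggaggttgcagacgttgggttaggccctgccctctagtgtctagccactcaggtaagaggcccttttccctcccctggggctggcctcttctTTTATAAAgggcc
Krt18: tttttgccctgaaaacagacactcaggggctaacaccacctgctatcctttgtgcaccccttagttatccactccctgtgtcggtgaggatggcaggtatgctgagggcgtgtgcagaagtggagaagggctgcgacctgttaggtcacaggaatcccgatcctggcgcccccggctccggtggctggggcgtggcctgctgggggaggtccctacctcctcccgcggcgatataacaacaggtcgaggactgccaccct

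The Krt20 window held 3 matches to GGAATG, with their first bases 139, 134 and 74 bases before the start, and 1 match to TATAAA that began 29 bases before it. The first pair of GGAATG matches shared 1 base. In the Krt8 window TATAAA was matched on both strands in overlapping positions at the start itself, and the Krt18 window held none of the motifs searched. None of the 5 keratins with a RefSeq window of 300 bases (all but Krt19) matched the AP-1 motif TGANTCA, and Krt5 and Krt7 matched no motif. Over all 32851 windows, 14.7% held GGAATG, 13.6% TATAAA and 7.81% TGANTCA. These are matches of letters and do not show that a factor binds.

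CKD was compared with control mice to ask which keratins an adenine-injured kidney expresses. Of the 6 keratins 5 rose (Krt7, Krt8, Krt18, Krt19 and Krt20) and none fell, by limma on log2(FPKM + 1) with p-values adjusted over all 13148 genes. The background is high: 54.6% of all genes tested were called higher and 13.3% lower in this comparison. After rescaling the same 5 keratins were called higher, beside 28.8% of all genes, and all genes then split into 3781 higher and 3856 lower, against 7181 and 1748 before. Every CKD mouse lay above every control mouse for these 5 keratins, as held for 44.6% of all genes, and this remained so for the 5 after rescaling, beside 22.3% of all genes. The size of the change differed widely, from 2.81-fold for Krt7 to 192.5-fold for Krt20 in the means (1.90 and 126.6 after rescaling), and the median log2 fold change of the 6 keratins was 2.23 as deposited and 1.67 after rescaling. In bulk tissue, more cells of a type and more RNA per cell cannot be told apart.

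**Figure D1:**
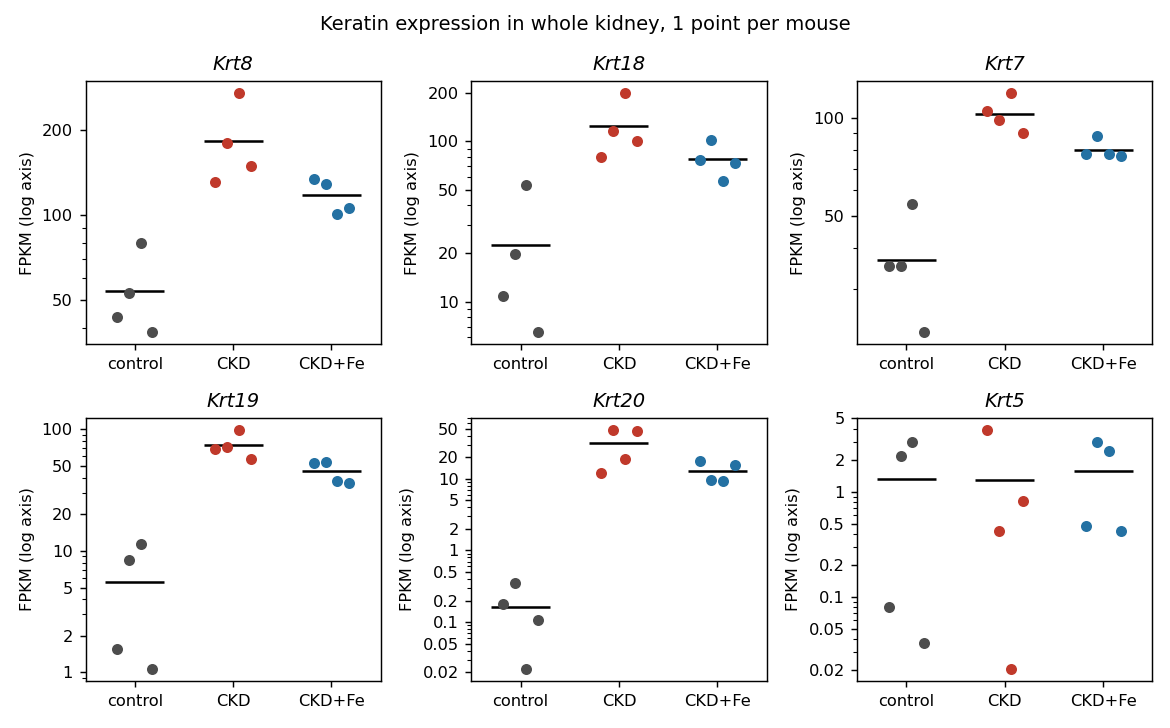
FPKM of each keratin on a log axis in the 4 mice of each group, with 1 point per mouse and a line at the group mean. As deposited, all CKD and CKD+Fe mice lie above all control mice for Krt7, Krt8, Krt18, Krt19 and Krt20, whereas the Krt5 values of the 3 groups overlap, over a narrower range in CKD+Fe mice.

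Krt8 (ENSMUSG00000049382, chromosome 15 from 101996711 to 102004342, minus strand) was the most abundant of the 6 keratins in each group. Its FPKM were 38.6, 43.6, 53.1 and 79.9 in control, 131, 149, 179 and 269 in CKD, and 101, 106, 129 and 134 in CKD+Fe mice. As deposited, control mice lay below all others, whereas after rescaling the control and CKD+Fe mice overlapped, and the highest control and CKD values came from the mice that stood apart, 042301 and 110310. CKD mice had 3.39 times the mean of control mice (182 ± 61.4 against 53.8 ± 18.4 FPKM, SD, n = 4 each), a log2 fold change of 1.74 (standard error (SE) 0.24, adjusted p = 3.47e-05, limma). It was 1.17 after rescaling (adjusted p = 0.00116, limma). Reads of Krt8 can be shared with processed pseudogene copies, and the counting of such reads is not described.

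Krt18 (ENSMUSG00000023043, chromosome 15 from 102028216 to 102032026, plus strand), the type I partner of Krt8, is its neighbour in the genome, 23.9 kb away with 0 other genes of the table between them. Its FPKM were 6.46, 10.9, 19.8 and 53.7 in control, 79.9, 101, 115 and 200 in CKD, and 56.9, 72.7, 76.6 and 102 in CKD+Fe mice. The control mice spread over an 8.31-fold range, with mouse 042301 just below the lowest CKD+Fe mouse as deposited and overlapping with that group after rescaling. Krt18 rose by 2.72 on the log2 scale in CKD mice (SE 0.47, adjusted p = 0.000217, limma), or by 2.17 after rescaling (adjusted p = 0.00171, limma). Across the 12 mice the deviations of Krt8 and Krt18 from their group means had a Pearson r of 0.92, and 0.91 without the 3 mice that stood apart.

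Krt7 (ENSMUSG00000023039, chromosome 15 from 101411043 to 101430313, plus strand), a type II keratin of ducts and urothelium, changed least of the 5. Its FPKM were 22.0, 35.1, 35.2 and 54.3 in control, 89.8, 98.3, 105 and 119 in CKD, and 76.3, 77.4, 77.4 and 88.3 in CKD+Fe mice. As deposited the 3 groups formed 3 steps that did not touch, with control lowest and CKD highest, but after rescaling CKD+Fe mice overlapped with both other groups. The log2 fold change in CKD mice was 1.53 (SE 0.20, adjusted p = 2.71e-05, limma), and 0.96 after rescaling (adjusted p = 0.00153, limma).

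Krt19 (ENSMUSG00000020911, chromosome 11 from 100140810 to 100148665, minus strand) is the smallest keratin and, with Krt7, a marker of duct epithelium. Its FPKM were 1.07, 1.56, 8.46 and 11.3 in control, 57.3, 68.5, 72.2 and 99.5 in CKD, and 36.2, 37.7, 53.2 and 53.4 in CKD+Fe mice. Control mice fell into a low pair (012811 and 042310) and a higher pair (012822 and 042301), and the CKD and CKD+Fe ranges did not overlap. Krt19 rose 13.3-fold in CKD mice (9.04-fold after rescaling, and 20.1-fold as deposited without control mouse 042301), with a log2 fold change of 3.89 (SE 0.47, adjusted p = 1.11e-05, limma), or 3.41 after rescaling (adjusted p = 5.76e-05, limma). The same pair of control mice was high for urothelium genes: 8 such genes (Upk1a, Upk1b, Upk2, Upk3a, Upk3b, Trp63, Foxa1 and Grhl3) summed to 23.7 and 26.9 FPKM there, against 1.56 and 1.88 FPKM in the other control mice. The part of this tissue in the Krt19 values of control mice was not tested.

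Krt20 (ENSMUSG00000035775, chromosome 11 from 99428403 to 99438150, minus strand) had the largest change of the 6 keratins. Its FPKM were 0.0221, 0.105, 0.182 and 0.348 in control, 12.2, 18.8, 46.9 and 48.6 in CKD, and 9.23, 9.67, 15.6 and 17.7 in CKD+Fe mice. Control kidneys were close to 0, and CKD mice formed a high pair (022301 and 120102) and a lower pair (021320 and 110310). Only CKD mouse 021320, at 12.2 FPKM, lay within the CKD+Fe range. The fold of means, 192.5, rests on these low control values and was 307-fold without control mouse 012822. The log2 fold change in CKD mice was 4.60 (SE 0.37, adjusted p = 4.49e-07, limma). The value of 1 added before taking logs understates the change of a gene this low in controls, and with 0.1 added the log2 fold change was 6.83 (adjusted p = 1.14e-07, limma). In rank by level, Krt20 was last of 6 in control mice and passed Krt5 in CKD mice.

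Krt5 (ENSMUSG00000061527, chromosome 15 from 101707070 to 101712891, minus strand) did not follow the others. Its FPKM were 0.0361, 0.0804, 2.20 and 3.00 in control, 0.0207, 0.423, 0.816 and 3.90 in CKD, and 0.422, 0.476, 2.46 and 2.95 in CKD+Fe mice. Every group held mice under 0.5 FPKM and at least 1 mouse above 2 FPKM, and the groups overlapped. The log2 fold change in CKD mice was -0.04, with a 95% interval from -1.21 to 1.14 (adjusted p = 0.956, limma). Neither a rise nor a fall of 2-fold can thus be told from no change. The value of 1 added before taking logs narrows this interval for a gene this low. With 0.1 added the log2 fold change was 0.10 with an SE of 1.17, against an SE of 0.55 with 1 added. Its direction was not stable, and without the 3 mice that stood apart the value was 0.61 (adjusted p = 0.341, limma).

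**Figure D2:**
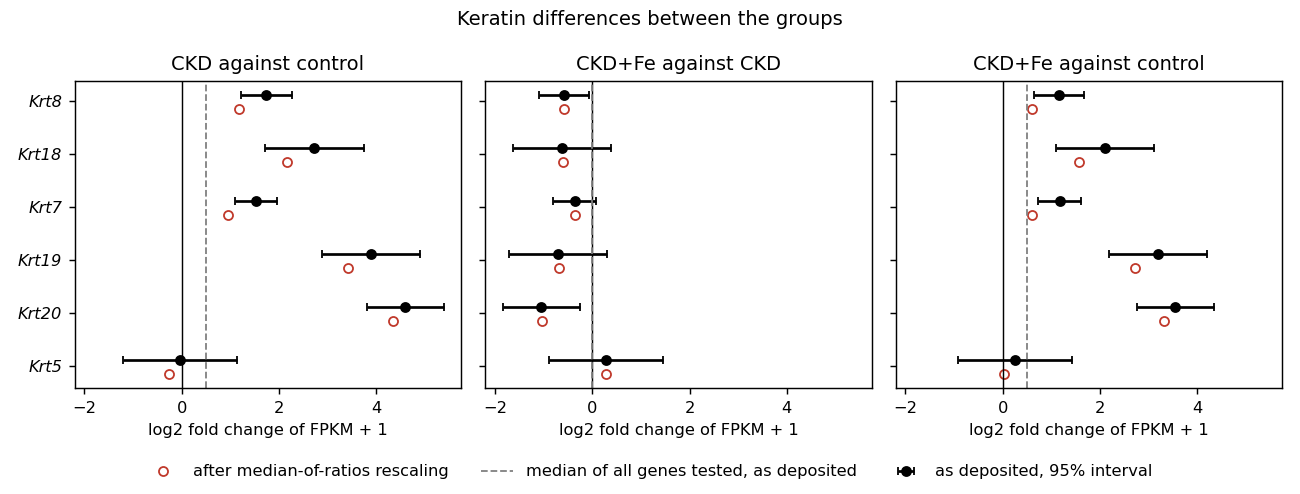
Log2 fold change of FPKM + 1 for each keratin in the 3 comparisons, with limma's 95% interval (filled points), the value after median-of-ratios rescaling (open points) and the median of all genes tested (dashed line). In CKD against control mice the filled points run from -0.04 for Krt5 to 4.60 for Krt20, and in CKD+Fe against CKD mice the points of all keratins but Krt5 lie below 0.

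The order of levels changed with the disease. In control mice the order by mean was Krt8, Krt7, Krt18, Krt19, Krt5 and Krt20, and neighbours in this order overlapped between mice in each case, although within a mouse Krt8 exceeded Krt7, Krt7 exceeded Krt18 and Krt18 exceeded Krt19 in 4 of 4 mice. In CKD mice the order was Krt8, Krt18, Krt7, Krt19, Krt20 and Krt5, with Krt19, Krt20 and Krt5 apart from each other and the 4 most abundant keratins overlapping with their neighbours. In CKD+Fe mice Krt8 came first again, Krt7 and Krt18 overlapped, and Krt19, Krt20 and Krt5 followed apart from each other. Added up, the 6 keratins reached 120 ± 58.4 FPKM in control mice, against 517 ± 135 in CKD and 334 ± 46.5 in CKD+Fe mice (SD, n = 4 each). Their sum was 4.55-fold higher in CKD than in control mice (ratio of geometric means, p = 0.0286 by exact two-sided permutation, below which 4 against 4 mice cannot go). This is a log2 difference of 2.187, and it was 1.609 after rescaling (exact two-sided permutation p = 0.0286). Such a p-value is reached whenever the 2 groups separate completely. Of all genes tested, 44.6% had every CKD mouse above every control mouse, and 22.3% did after rescaling.

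The make-up of this sum moved towards type I chains. Krt8 and Krt7 took 47.1 ± 7.15% and 31.8 ± 4.93% of the keratin FPKM in control mice, and 34.8 ± 2.37% and 20.6 ± 3.99% in CKD mice (SD, n = 4 each). Krt19 went from 3.99 ± 2.79% to 14.5 ± 1.82%, and Krt20 from 0.164 ± 0.117% to 6.43 ± 4.15%. The ratio of type II to type I FPKM was 2.11, 3.17, 6.22 and 7.95 in control, 1.17, 1.18, 1.22 and 1.49 in CKD, and 1.33, 1.44, 1.46 and 1.74 in CKD+Fe mice. Among these 6 keratins, control mice all had more type II than type I message by at least 2-fold, whereas CKD mice were nearer to equal parts. Other keratin genes were left out, among them type I Krt10 (mean 8.83 FPKM in control and 5.54 FPKM in CKD mice). Whether the 2-fold difference holds with them included was not tested. The log2 ratio fell by 1.76 in CKD (exact two-sided permutation p = 0.0286) and was also lower in CKD+Fe than in control mice, by -1.52 (exact two-sided permutation p = 0.0286). A ratio within a mouse is not affected by the scaling between mice, and without the 3 mice that stood apart it differed by -2.08 and -1.84 from control mice. Krt8 over Krt18 alone fell less clearly, with a log2 difference of -1.06 (exact two-sided permutation p = 0.0857).

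**Figure D3:**
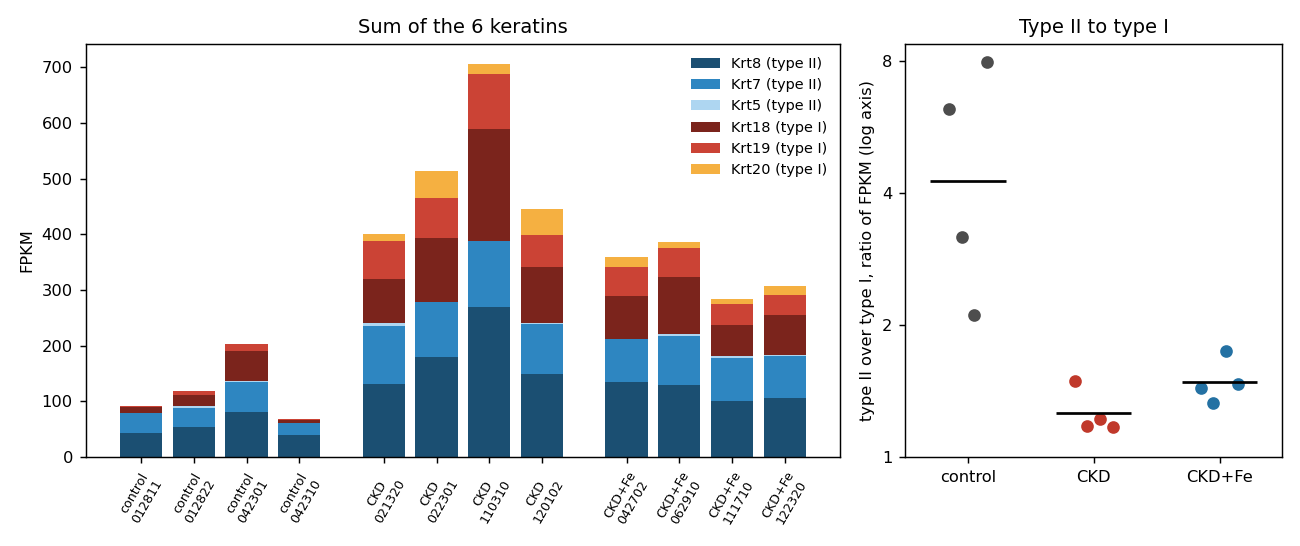
Left, FPKM of the 6 keratins stacked for each mouse, with type II keratins in blue and type I keratins in red and orange; right, the ratio of type II to type I FPKM on a log axis, with 1 point per mouse and a line at the geometric mean. Sums range from 68.3 to 202 FPKM in control mice and from 400 to 707 FPKM in CKD mice. Among these 6 keratins, the ratio lies above 2 in every control mouse and below 2 in every other mouse.

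CKD+Fe was compared with CKD to ask whether iron dextran altered keratin expression in the diseased kidney. Of the 6 keratins 0 were called in either direction (limma, adjusted p under 0.05), and 0.00761% of all genes tested were. All keratins but Krt5 had lower means in CKD+Fe mice. By limma, the log2 fold change was -1.05 for Krt20 (95% interval -1.84 to -0.26, adjusted p = 0.648) and -0.70 for Krt19 (-1.71 to 0.30, adjusted p = 0.941). It was -0.62 for Krt18 (-1.64 to 0.40), -0.59 for Krt8 (-1.10 to -0.07) and -0.36 for Krt7 (-0.80 to 0.08), with adjusted p-values from 0.786 to 0.958 (limma). The intervals of Krt20 and Krt8 lay below 0, and those of Krt19, Krt18 and Krt7 held 0 as well as lower values. Before adjustment, p was under 0.05 for Krt20 and Krt8 (limma), as for 431 genes that were higher and 359 that were lower among all 13148 genes tested. The CKD and CKD+Fe mice overlapped for both keratins, with exact two-sided permutation p of 0.114 for Krt20 and 0.0571 for Krt8.

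For Krt7 and Krt19 every CKD+Fe mouse was below every CKD mouse, which held for 1.08% of all genes tested. Krt19 was also separated in this way after rescaling, as were 1.21% of all genes, whereas the Krt7 groups then overlapped. The sum of the 6 keratins was lower in each CKD+Fe mouse (285, 307, 359 and 386 FPKM) than in each CKD mouse (400, 445, 514 and 707 FPKM), a log2 difference of -0.60 (exact two-sided permutation p = 0.0286). After rescaling this difference was -0.59 with an exact permutation p of 0.0571, and it was -0.48 without the 3 mice that stood apart. Type II over type I was 0.24 higher on the log2 scale in CKD+Fe mice (exact two-sided permutation p = 0.114).

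CKD+Fe was compared with control to ask what remained elevated under iron. Krt7, Krt8, Krt18, Krt19 and Krt20 were called higher (5 of 6), against 54.4% of all genes called higher and 11% called lower. Their log2 fold changes ran from 3.55 for Krt20 and 3.19 for Krt19 down to 1.17 for Krt7 and 1.16 for Krt8, and adjusted p-values from 5.26e-06 to 0.00165 (limma). After rescaling 4 of the 6 were called higher, beside 27.7% of all genes (3636 higher and 3618 lower, against 7159 and 1442 before), since Krt8 then had a log2 fold change of 0.60 (adjusted p = 0.0543, limma). Every CKD+Fe mouse was above every control mouse for the 5 keratins, as for 50.3% of all genes. After rescaling this held for Krt19 and Krt20 (2 of 6, beside 25.4% of all genes), whereas Krt7, Krt8 and Krt18 overlapped. Krt5 differed by 0.25 (95% interval -0.92 to 1.43, adjusted p = 0.702, limma). This comparison and that of CKD with control share the 4 control mice.

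Krt5 followed the urothelium genes from mouse to mouse. Over the 12 mice, deviations of Krt5 from the group means had a Pearson r of 0.95 and a Spearman rho of 0.94 with those of the summed 8 urothelium genes, and r was 0.92 in 10 mice without the most extreme 2 sums. With Psca, a surface antigen of urothelium that was left out after its values were seen, r was 0.84. Out of all 12 genes on the urothelium list, 7 were tested and 0 were called in any comparison, and the list summed to 1.86 to 147 FPKM over control mice, 6.76 to 61.2 over CKD mice and 30.7 to 55.4 over CKD+Fe mice. Upk2, Upk3a, Foxa1, Krt13, Krt14 and Krt15 were at 0 in at least 1 mouse, and Upk3a, a uroplakin of the umbrella cell surface, was at 0 in control mouse 012811, where Krt5 was at 0.0804 FPKM. For the other keratins r with the 8 genes was 0.65 (Krt19), 0.51 (Krt7), 0.41 (Krt18), 0.10 (Krt8) and -0.31 (Krt20). With Psca in the sum these were 0.80, 0.62, 0.60, 0.34 and -0.15, so that Krt19 was then nearly as close as Krt5. In the 10 mice without the most extreme 2 sums, r with the 8 genes was 0.63, 0.30, 0.37, 0.04 and 0.05 in the same order. How much pelvic lining each kidney sample held was not recorded in the sources used here, and its part in these values was not tested.

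**Figure D4:**
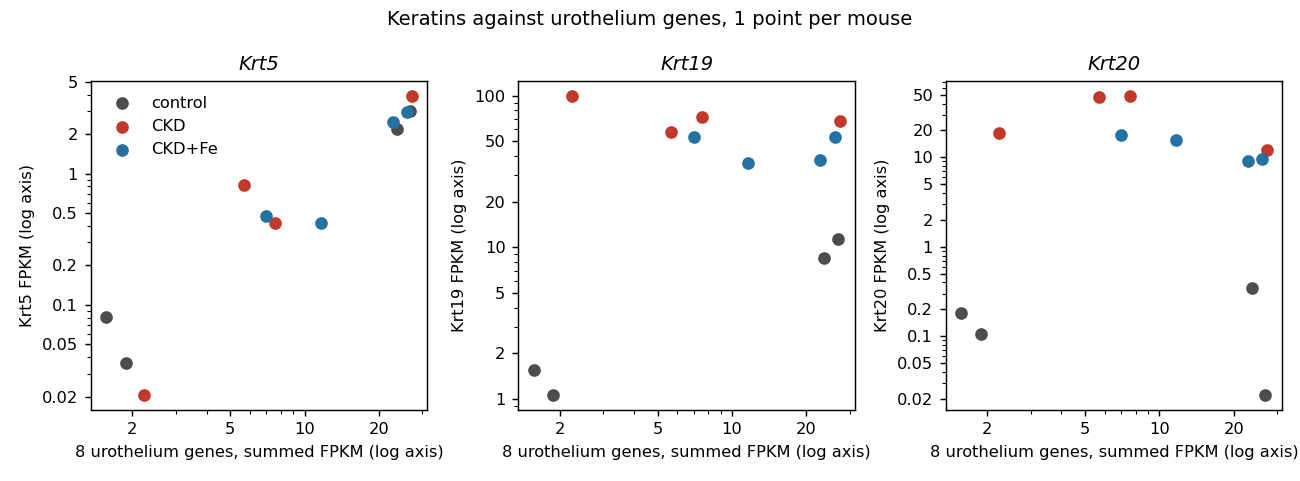
FPKM of Krt5, Krt19 and Krt20 against the summed FPKM of 8 urothelium genes, both on log axes, with 1 point per mouse coloured by group. Krt5 follows the urothelium sum across all 3 groups, Krt19 does so among the 4 control mice, and among CKD and CKD+Fe mice the 3 with the highest sums have the 3 lowest Krt20 values (9.23 to 12.2 FPKM). They are CKD mouse 021320 and CKD+Fe mice 062910 and 111710, from groups whose Krt20 means differ (31.63 and 13.05 FPKM).

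The genes whose deviations were most like those of each keratin were listed over the 12 mice, as a description in which the highest of 13148 values are picked and no test applies. Krt5 was closest to the uroplakin Upk3a (r = 0.97), Krt15, another keratin of basal epithelium (0.96), and Upk1b (0.96). Krt20 was closest to the protease gene Asprv1 (0.97), the myeloid receptor gene Cd300lf (0.96) and Gpc3, a glypican (0.96). Serinc2 (0.97) and Copz2 (0.97) were among the genes most like Krt8, and Krt18 was closest to 2310061I04Rik (0.97), the glycolytic enzyme gene Aldoa (0.96) and Pin4 (0.96). Krt19 was closest to Pced1a (0.98), Akr1b3, which encodes aldose reductase (0.97), and Atad3a (0.97), and Krt7 to Eif2b1 (0.96), Abcb6 (0.96) and the small heat shock protein gene Cryab (0.95). Among the keratins themselves, Krt7, Krt8, Krt18 and Krt19 varied together (r from 0.76 to 0.92), whereas Krt20 had r of -0.001 with Krt8, -0.03 with Krt18 and -0.08 with Krt19. Without the 3 mice that stood apart, r of Krt20 was 0.50 with Krt8 and 0.36 with Krt18, and r of Krt7 went from 0.76 to 0.53 with Krt8, from 0.81 to 0.64 with Krt19 and from 0.90 to 0.72 with Krt18.

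The table held 44 other keratin genes, of which 38 were under 1 FPKM in every mouse, 14 of them at 0 throughout, and 4 were tested. Krt10, the type I keratin of differentiating epidermis, was 8.83 ± 2.42 FPKM in control and 5.54 ± 0.559 FPKM in CKD mice, a log2 fold change of -0.56 (SE 0.16, adjusted p = 0.00836, limma), or -1.07 after rescaling. Krt15, Krt23 and Krt80 had log2 fold changes of 0.02, 0.01 and 0.25 in CKD mice and did not pass the test. Of the 40 keratin genes not tested, 2 reached 1 FPKM in a mouse and are named after their values were seen. Krt17, a keratin known from wounded epidermis, had FPKM of 0, 0, 0.0630 and 0.107 in control, 0.792, 1.35, 1.74 and 3.71 in CKD, and 0.323, 0.592, 0.726 and 0.735 in CKD+Fe mice. The Krt17 values of the 3 groups did not overlap as deposited, but they are low, the reads behind them are not known and no test was run. The highest CKD+Fe value, 0.735 FPKM, was close to the lowest CKD value, 0.792 FPKM. Of all genes tested, 44.6% had every CKD mouse and 50.3% every CKD+Fe mouse above every control mouse. Every CKD+Fe mouse was below every CKD mouse for 1.08%. Krt14, the type I partner of Krt5, ranged from 0 to 1.59 FPKM over control mice, 0 to 1.42 over CKD mice and 0.140 to 1.65 over CKD+Fe mice.

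Genes of proteins that anchor keratin filaments are given beside the shares over all genes, of which 54.6% were called higher and 13.3% lower (28.8% higher after rescaling). Of 20 listed genes of desmosomes, hemidesmosomes and linkers 17 were tested, and in CKD against control mice 12 rose and 0 fell (10 and 2 after rescaling), with a median log2 fold change of 1.22 (0.70 after rescaling). The desmosomal cadherin gene Dsg2 rose by 2.04 (adjusted p = 2.02e-06), Ppl, which encodes the linker periplakin, by 2.04 (adjusted p = 5.75e-05), and Itgb4, an integrin chain of hemidesmosomes, by 1.93 on the log2 scale (adjusted p = 4.81e-06, all limma). Of the other intermediate filament genes tested, 6 of 6 rose (4 after rescaling), with Vim, the filament protein of mesenchymal and injured tubule cells, at 2.09, the lamin gene Lmnb1 at 1.60 and the nestin gene Nes at 1.51. Of 12 genes of epithelial junctions and polarity, 9 rose and 1 fell (7 and 2 after rescaling), with the tight junction genes Cldn4 at 2.88 and Cldn7 at 2.06 on the log2 scale. None of these lists held a gene called in CKD+Fe against CKD mice.

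Markers of the cells that could hold these keratins moved in different directions beside them. Their counts are to be read beside all genes tested, of which 54.6% were called higher and 13.3% lower. After rescaling 28.8% of all genes were called higher, and 3856 of 13148 were called lower. Whether a list differed from these shares was not tested. Of 18 genes of tubule injury and repair, 17 rose and 1 (Hopx, named after its values were seen) fell in CKD mice, as did 16 and 1 after rescaling, and the list summed to 935 to 1537 FPKM over control mice, 13770 to 23880 over CKD mice and 10130 to 17410 over CKD+Fe mice. The largest changes were those of Lcn2 (log2 fold change 7.05), Havcr1, which encodes KIM-1 (6.05), and Timp1 (5.99). Of 12 collecting duct principal cell genes, 3 rose and 2 fell (1 and 7 after rescaling), where the water channel genes Aqp3 and Aqp2 had log2 fold changes of -1.28 and -1.24 and the transcription factor gene Tfap2b 1.23. For Aqp2 the control and CKD mice overlapped (adjusted p = 0.0415, limma). Principal cell genes summed to 590 to 2121 FPKM over control mice, 410 to 688 over CKD mice and 497 to 798 over CKD+Fe mice. The medians of these sums were 708, 525 and 763 FPKM. No gene of this list was at 0 in any mouse. Of 8 intercalated cell genes, 2 rose and 2 fell (1 and 5 after rescaling). Which cells carried the keratins was not measured, and the part of each cell type in their values was not tested.

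Further lists describe the tissue as a whole, to be read beside the same 54.6% of all genes called higher (28.8% after rescaling). In CKD mice 8 of 8 fibroblast genes rose (7 after rescaling), as did 6 of 7 tested macrophage and leukocyte genes (6 after rescaling), 3 of 8 inner medulla genes (2 after rescaling, with 1 lower), 3 of 6 podocyte genes (1 after rescaling), 2 of 8 genes of thick ascending limb and distal convoluted tubule (2 others fell, with 1 higher and 2 lower after rescaling) and 1 of 4 tested mesothelium genes (1 other fell, with 0 higher and 1 lower after rescaling). The mesothelium gene that rose was Wt1 (log2 fold change 1.225), which is also counted among the podocyte genes, and the one that fell was Gpm6a (-1.28). The fibroblast list summed to 108 to 138 FPKM in control and 537 to 1107 FPKM in CKD mice, and the macrophage list to 28.7 to 46.1 and 188 to 418 FPKM. None of these genes was called in CKD+Fe against CKD mice.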

How the data were processed

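Whole kidney RNA of 12 mice was sequenced with single-end reads of 50 cycles from stranded mRNA libraries. The authors deposited 1 table of FPKM per protein-coding gene, and their processing notes name bcl2fastq (2.19), STAR (2.5.2), Cufflinks (2.1.1) and GRCm38. Values that Cufflinks marked as failed were masked (30 values in 17 genes, 0 of them in the 6 keratins). Mice are named by the numbers in the labels, which give neither batch nor sex. The study tested read counts with DESeq2, which FPKM do not allow, so limma 3.58.1 (R 4.3.3) was fitted to log2(FPKM + 1) of all 12 mice with a variance trend. The test was run on the 13148 genes that reached 1 FPKM in 4 or more mice, with Benjamini-Hochberg adjustment and a threshold of 0.05. Sums and ratios of keratins were compared by exact two-sided permutation over all 70 arrangements, and ± is SD. The limma fit was tested on simulated data, and the permutation test on 1 made-up case of complete separation. Alternatives were rescaling, quantile normalization, a pseudocount of 0.1, other filters, array weights, fits to 2 groups and left-out mice. Folds of means without single mice and the separation of rescaled groups were added after the data were seen. The keratins and gene lists were chosen with earlier results of these data known. Named beside the keratins were other tested keratin genes, the 3 largest called changes of each list and the 3 genes most like each keratin, of which some are not reported here. Promoter sequences are from RefSeq. Labels name mice and not cultures or litters, and p-values measure the spread between these mice.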

Additional observations from a re-analysis of the deposited data

Results flagged for a closer look

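Krt7 in CKD+Fe mice had 1 value far from the other 3. Mouse 062910 had 88.28 FPKM against 76.3 to 77.4 FPKM in the others, and this gap took a larger share of the group's range than Dixon's 95% limit for 4 values. In all 27 groups of 4 values were examined in this way, and chance alone exceeds the limit in about 1 group of 20. The cause was not tested.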

How the results depend on the processing

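Of 450 values computed under the alternatives, 435 were counted as unchanged. For fold changes and rescaled sums this meant the same direction and the same side of the threshold. A count had to stay near that of the main run. Thus 4 in place of 5 keratins called in CKD+Fe against control mice under rescaling passed. Ratios and sums with mice left out or with group medians had to stay within the larger group SD of the main value, without a test. Under median-of-ratios rescaling the log2 difference of the keratin sum was -0.5948 in CKD+Fe against CKD and 1.014 in CKD+Fe against control mice, each with an exact permutation p of 0.0571, and Krt8 was 0.5956 higher in CKD+Fe than in control mice (adjusted p = 0.0543, limma), and the cause was not tested. The log2 ratio of Krt8 to Krt18 in CKD+Fe against CKD mice, 0.03838, changed sign but stayed within that SD. It was -0.01414 without CKD mouse 110310, -0.02214 without CKD+Fe mouse 042702 and -0.02811 without CKD+Fe mouse 111710. Without the 3 mice that stood apart this ratio was -0.07466. The other values not counted as unchanged were all those of Krt5, which no setting called. Its log2 fold change in CKD mice was 0.618 with array weights, 0.1009 with a pseudocount of 0.1 and 0.6079 without the 3 mice that stood apart, and in CKD+Fe against control mice it was -0.4227 with quantile normalization. Leaving out 1 mouse at a time, it ran from -0.4935 to 0.31 in CKD against control, from -0.01041 to 0.7443 in CKD+Fe against CKD and from -0.05203 to 0.5975 in CKD+Fe against control mice. Its direction turned without CKD mouse 022301 or 110310 or control mouse 012822 or 042301 in the first comparison, without CKD mouse 110310 in the second, and without CKD+Fe mouse 062910 or control mouse 012811 or 042310 in the third. With 1 mouse left out, 5 keratins were called against control mice and 0 in CKD+Fe against CKD mice each time. Counts over all genes moved with the scaling: in CKD mice 7181 genes were called up and 1748 down as deposited, 3781 and 3856 with rescaling, and 3060 and 3363 with quantile normalization. For CKD+Fe against control these were 7159 and 1442, 3636 and 3618, and 2605 and 2967. In CKD+Fe against CKD mice 1 gene was called, against 160 with array weights, 83 without the 3 mice that stood apart, 13 without CKD+Fe mouse 042702, 164 at an adjusted p threshold of 0.5, and 0 with only the 2 groups compared. None of the 6 keratins was called under any of these settings. A filter of 5 FPKM on the mean removed Krt5, and sums and ratios with mice left out carry no test. The number of reads is not known, so that the reliability of low values, as of Krt20 in control mice, cannot be given. No paired analysis was possible because the groups share no replicate numbers.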
